A study of Mus musculus with 6 samples.

Results

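The 7 genes described here are the liver metallothioneins Mt1 and Mt2, the zinc-sensing transcription factor gene Mtf1, the exporter genes Slc30a1 and Slc30a10 and the importer genes Slc39a4 and Slc39a14. They were taken by gene symbol, and all 7 were present among the 22609 genes of the count tables. The list was drawn up with results of this genotype comparison known, so the fold changes below describe these genes, and their adjusted p-values only place them in the fit across all genes. The samples were 3 livers of mice with a knockout of Igfbp7 (IGFBP7_KO), made in the C57BL/6 strain by Cre-loxP recombination, and 3 livers of wild type C57BL/6 mice (WT). All were adult. The labels give no sex, exact age, feeding state or time of collection, name no Cre driver, and leave unsaid whether each library of a genotype is a separate animal. The p-values therefore measure the spread between these samples, which may be partly technical.

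Metallothioneins are small, cysteine-rich proteins that bind zinc, copper and cadmium and buffer free metal in the cell. When cytosolic zinc rises, MTF1 binds metal response elements (MREs) in the promoters of Mt1, Mt2 and Slc30a1, and glucocorticoids and inflammatory cytokines also induce metallothioneins in liver. The SLC30 (ZnT) family moves metal out of the cytosol, and the SLC39 (ZIP) family brings it in. SLC30A10 differs from its relatives in that it exports manganese, which the liver passes into bile.

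The promoters of both metallothionein genes and of both SLC30 exporter genes are shown because Mt1, Mt2 and Slc30a10 stood farthest apart between the genotypes and Slc30a1 is the known MTF1 target among the carriers. Sequences are those of RefSeq on GRCm38.p6, the 250 bases before the gene start that RefSeq gives. Capitals mark matches to the MRE core, searched on both strands as TGCACNC and TGCGCNC.
Mt1, chr8:94178839-94179088, plus strand: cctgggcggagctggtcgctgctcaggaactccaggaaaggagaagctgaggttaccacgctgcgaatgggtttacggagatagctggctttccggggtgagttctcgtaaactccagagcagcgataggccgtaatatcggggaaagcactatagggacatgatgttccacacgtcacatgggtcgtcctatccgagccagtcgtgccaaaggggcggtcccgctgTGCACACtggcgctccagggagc
Mt2, chr8:94172368-94172617, plus strand: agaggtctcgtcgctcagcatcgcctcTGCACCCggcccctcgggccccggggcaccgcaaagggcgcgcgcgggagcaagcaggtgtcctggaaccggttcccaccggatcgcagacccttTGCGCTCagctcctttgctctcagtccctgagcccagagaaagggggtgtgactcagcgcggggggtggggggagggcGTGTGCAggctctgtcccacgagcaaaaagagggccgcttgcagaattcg
Slc30a1, chr1:191906531-191906780, plus strand: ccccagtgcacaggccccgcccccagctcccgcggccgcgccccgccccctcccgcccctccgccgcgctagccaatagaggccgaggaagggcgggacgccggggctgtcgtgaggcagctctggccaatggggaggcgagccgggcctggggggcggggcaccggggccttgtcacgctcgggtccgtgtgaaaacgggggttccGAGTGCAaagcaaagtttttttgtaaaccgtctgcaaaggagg
Slc30a10, chr1:185454598-185454847, plus strand: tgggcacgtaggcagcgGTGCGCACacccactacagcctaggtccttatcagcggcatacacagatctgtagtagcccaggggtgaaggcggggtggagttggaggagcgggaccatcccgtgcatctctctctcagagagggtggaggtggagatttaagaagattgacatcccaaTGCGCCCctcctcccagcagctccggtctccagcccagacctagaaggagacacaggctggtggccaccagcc

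In windows of 300 bases, these 250 and the 50 past the start, Mt1 held 3 MRE cores, Mt2 held 4, Slc30a10 held 3 and Slc30a1 held 2. Of those, 2 in Mt1, 1 in Mt2 and 1 in Slc30a1 lay past the start that RefSeq gives and are not printed. Whether transcription in these livers began at that start was not tested, and a start placed elsewhere would change which matches precede it. The first match in Slc30a10 is a pair on opposite strands that overlap by all but 1 base, so its 3 matches occupy a pair of separate places. No MRE core was found in the Mtf1 window. Of 32851 RefSeq promoter windows of this length, 25.7% held at least 1 core, 1.97% held at least 3 and 0.517% held at least 4. The antioxidant response core TGACNNNGC was present once in Mt2 and once in Slc30a1, against 12.4% of all windows. None of the 5 windows held the palindromic glucocorticoid receptor motif, the palindromic STAT motif or the E-box CACGTG, which 0.00913%, 8.3% and 7.15% of windows held. These matches describe the sequence and are not evidence of binding.

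Library depth ran from 18912701 to 22419411 gene counts in IGFBP7_KO livers and from 16712568 to 21478524 in WT livers. Igfbp7 itself had 5, 2 and 9 counts in the knockout libraries, against 1438, 1705 and 1055 in WT libraries, which matches the labels. Hepatocyte markers summed to 104000 to 129000 CPM (gene counts scaled to library size) in knockout and 96800 to 116000 CPM in WT livers. WT replicate 1 stood apart from the other libraries in its clock genes. A clock score, in which the mean log2 CPM of morning-phase genes is subtracted from the mean of evening-phase ones, was 3.63, 4.33 and 4.05 in knockout replicates 1 to 3, against 0.06, 2.91 and 3.35 in WT replicates 1 to 3. Collection time and genotype cannot be told apart in this design. Because these are bulk samples, fewer cells of a type and less RNA per cell cannot be told apart either.

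Both metallothionein genes had more transcripts in every IGFBP7_KO liver than in any WT liver. Mt1, the gene for metallothionein 1 on chromosome 8, had 200, 949 and 466 counts in knockout replicates 1 to 3, against 80, 88 and 83 counts in WT replicates 1 to 3. On the CPM scale these were 9.47, 51.8 and 22.9 in knockout and 4.25, 4.12 and 4.79 in WT livers. The WT livers lay close together, whereas knockout replicate 2 stood well above the other knockout livers, and the groups did not overlap. Mt1 averaged 28.0 ± 21.6 CPM in knockout and 4.39 ± 0.36 CPM in WT livers (SD, n = 3 each). The log2 difference was 2.67 ± 0.53 (SE; 95% interval 1.46 to 3.89), at rank 127 by p among the 12522 genes tested. The quasi-likelihood test of edgeR gave it an adjusted p of 0.0825, which does not pass the threshold of 0.05.

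Mt2, the coding neighbour of Mt1 in RefSeq and the gene for the other major liver metallothionein, had fewer reads and a wider spread. It had 33, 398 and 105 counts in knockout replicates 1 to 3, against 23, 23 and 20 counts in WT replicates 1 to 3. These counts gave 1.56, 21.7 and 5.16 CPM in knockout and 1.22, 1.08 and 1.15 CPM in WT livers. Knockout replicate 1 lay only 1.28 times above the highest WT liver, and its 95% exact Poisson interval of 1.08 to 2.19 CPM, which covers counting error only, overlapped those of all 3 WT livers. The log2 fold change of Mt2 was 3.03 ± 0.86 (SE; 95% interval 1.08 to 4.97), with an adjusted p of 0.157 by edgeR. Without knockout replicate 2 the fold change of Mt1 was 3.68 in place of 6.38 and that of Mt2 was 2.91 in place of 8.14, so this library sets much of the size of both. Without WT replicate 1, the library that stood apart in its clock genes, the log2 fold change was 2.65 for Mt1 and 3.07 for Mt2.

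**Figure D1:**
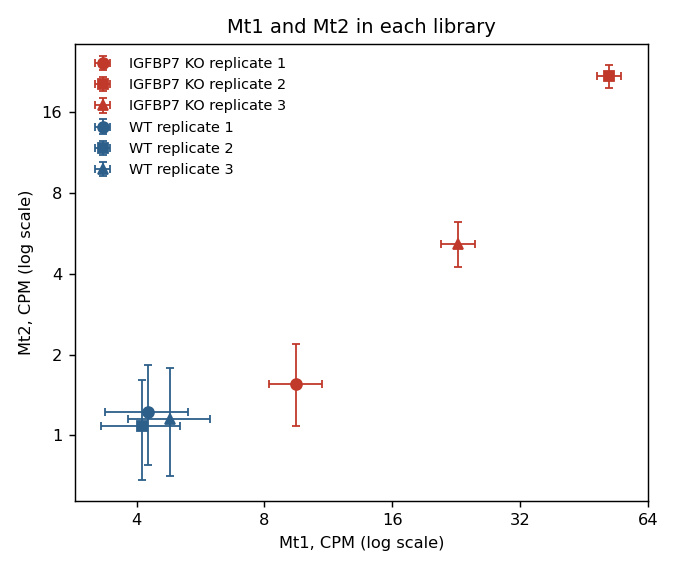
Level of Mt2 (vertical axis, CPM, log scale) against Mt1 (horizontal axis, CPM, log scale) in each of the 6 libraries. Bars are 95% exact Poisson intervals, covering counting error only. The 3 WT livers sit together near 4 CPM of Mt1, and the knockout livers spread upward along both axes in the order replicate 1, 3 and 2.

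The spread among knockout livers was itself large. The highest knockout liver held 5.47 times the Mt1 level of the lowest, against 1.16 times among WT livers. For Mt2 these ratios were 13.9 in knockout and 1.14 in WT livers. The coefficient of variation of Mt1 was 77.1% over the knockout and 8.14% over the WT livers. For Mt2 the coefficient was 113% in knockout and 6.4% in WT livers. With 3 samples a genotype, the difference in spread was not tested.

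The balance between the metallothioneins varied among the knockout livers. There were 6.06, 2.38 and 4.44 Mt1 counts per Mt2 count in knockout replicates 1 to 3, against 3.48, 3.83 and 4.15 in WT replicates 1 to 3. Knockout livers lay on both sides of the WT livers, with the lowest ratio in replicate 2, where both genes were highest. Knockout replicates 1 and 2 were apart beyond counting error, at 95% intervals of 4.18 to 9.05 and 2.12 to 2.69, whereas the intervals of the WT livers overlapped each other. The mean log2 ratio was 2.0 ± 0.69 in knockout and 1.93 ± 0.13 in WT livers (SD, n = 3 each), a difference of 0.07 (2-sided exact permutation test, p = 0.8). The smallest p that 3 against 3 allows is 0.1, so this test could not have passed 0.05 and does not show that the ratios were alike. Mt1 and Mt2 together made up 11, 73.5 and 28.0 CPM in knockout and 5.48, 5.19 and 5.95 CPM in WT livers. The metallothionein genes Mt3 and Mt4 had 0 counts in all 6 libraries, which allows up to 0.142 to 0.164 CPM in knockout and 0.14 to 0.173 CPM in WT libraries at a limit of 3 counts.

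**Figure D2:**
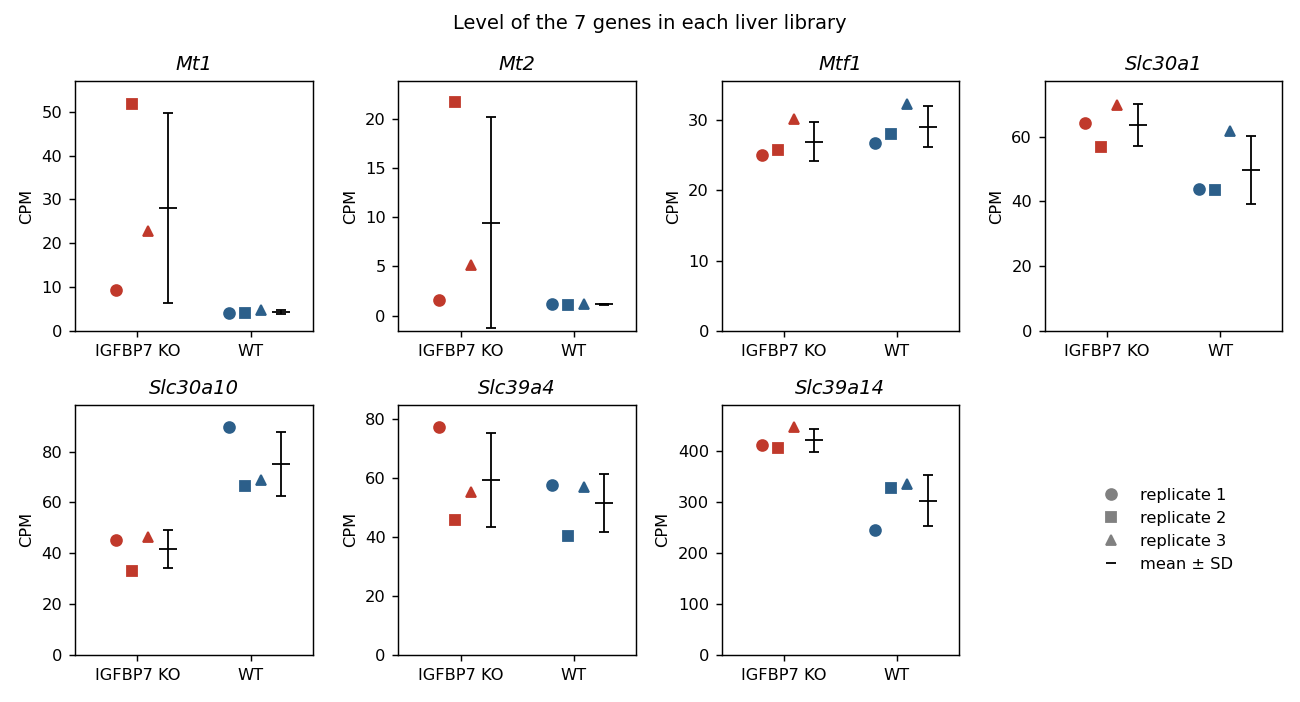
Level of each gene in CPM (vertical axes) in IGFBP7_KO and WT livers. Each symbol is 1 library and the bar beside each group is the mean ± SD (n = 3). Mt1, Mt2 and Slc39a14 are higher in every knockout library than in any WT library, Slc30a10 is lower, and Mtf1, Slc30a1 and Slc39a4 overlap.

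Mtf1, the zinc sensor that drives metallothionein transcription, was at similar levels in both genotypes. It had 25.0, 25.7 and 30.1 CPM in knockout replicates 1 to 3, against 26.8, 28.0 and 32.3 CPM in WT replicates 1 to 3. The groups overlapped, and the log2 fold change was -0.11 ± 0.12 (SE; 95% interval -0.37 to 0.16; adjusted p = 0.717, edgeR). Mtf1 lies on chromosome 4 and shares sequence with 1110065P20Rik on the opposite strand, which had 43 to 62 counts in knockout and 48 to 82 counts in WT libraries.

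The exporter genes differed in direction. Slc30a10, the manganese exporter on chromosome 1, had 959, 604 and 948 counts in knockout replicates 1 to 3, against 1683, 1425 and 1195 counts in WT replicates 1 to 3. Its CPM were 45.4, 33.0 and 46.5 in knockout and 89.5, 66.6 and 69.0 in WT livers. All knockout livers lay below all WT livers, and the lowest value was that of knockout replicate 2, the liver with the most Mt1 and Mt2. Slc30a10 averaged 41.6 ± 7.5 CPM in knockout and 75.0 ± 12.6 CPM in WT livers (SD, n = 3 each). Its log2 fold change was -0.85 ± 0.16 (SE; 95% interval -1.21 to -0.48), or 0.555 of the WT level. It had the smallest p of the 7 genes, at rank 99 of all genes tested, and an adjusted p of 0.0736 by edgeR. Gm2061 overlaps Slc30a10 on the opposite strand and had 19, 11 and 30 counts in knockout replicates 1 to 3 and 47, 28 and 32 in WT replicates 1 to 3. The sources used here state no strand setting, so reads of the shared stretch may not be separated. Any part of such reads in the level of Slc30a10 was not tested.

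Slc30a1, which exports zinc across the plasma membrane and is a known MTF1 target, had 64.3, 56.9 and 69.8 CPM in knockout replicates 1 to 3, against 43.8, 43.5 and 61.8 CPM in WT replicates 1 to 3. WT replicate 3 lay within the range of the knockout livers. The log2 fold change was 0.36 ± 0.15 (SE; 95% interval 0.02 to 0.70), and 0.55 without WT replicate 3. The adjusted p was 0.303 by edgeR. The gene 1700034H15Rik overlaps Slc30a1 on the opposite strand. It had 8, 4 and 21 counts in knockout replicates 1 to 3, against 0, 3 and 9 in WT replicates 1 to 3. Any part of reads from the shared stretch in the level of Slc30a1 was not tested.

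Slc39a14, the hepatocyte importer of zinc, manganese and non-transferrin-bound iron, was higher in every knockout liver than in any WT liver. It had 8690, 7429 and 9081 counts in knockout replicates 1 to 3, against 4608, 6994 and 5808 counts in WT replicates 1 to 3. Its CPM were 411, 405 and 446 in knockout and 245, 327 and 335 in WT livers. The knockout livers were close together and WT replicate 1 was the lowest of all. The log2 fold change was 0.48 ± 0.13 (SE; 95% interval 0.17 to 0.78; adjusted p = 0.152, edgeR), and 0.35 without WT replicate 1. The manganese importer Slc39a14 and the manganese exporter Slc30a10 thus stood on opposite sides of the WT level, although neither passed the threshold.

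Slc39a4, the zinc importer best known from the intestine, where its loss in humans causes acrodermatitis enteropathica, overlapped between the genotypes. It had 77.0, 45.8 and 55.0 CPM in knockout replicates 1 to 3, against 57.4, 40.1 and 56.8 CPM in WT replicates 1 to 3. The log2 fold change was 0.21 ± 0.20 (SE; 95% interval -0.26 to 0.67; adjusted p = 0.684, edgeR). Knockout replicate 1 held the highest value, and without it the log2 fold change was -0.03. Fabp2, which is expressed in both gut and liver, was at 69.8 ± 4.1 CPM in knockout and 64.4 ± 7.1 CPM in WT livers (SD, n = 3 each), and the intestinal genes Cdx1, Cdx2 and Alpi were at 0 counts in all libraries. The summed level of the 7 intestinal markers was 67.4 to 74.2 CPM in knockout and 58.3 to 72.2 CPM in WT livers. Lgals4, an intestinal galectin among them, had 37, 25 and 27 counts in knockout replicates 1 to 3, against 9, 7 and 16 counts in WT replicates 1 to 3 (adjusted p = 0.144, edgeR). Its part in the level of Slc39a4 was not tested.

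Taking the 7 genes together, edgeR called 0 at an adjusted p under 0.05, where 0.216% of all genes tested were called, 0.128% as higher and 0.0878% as lower. At an unadjusted p under 0.05 there were 4 higher (Mt1, Mt2, Slc30a1 and Slc39a14) and 1 lower (Slc30a10), against 15.4% of all genes in either direction. The genotypes did not overlap in 4 of the 7, against 20.7% of all genes tested. DESeq2 called Mt1 and Slc39a14 higher and Slc30a10 lower (adjusted p = 0.0048, 0.0291 and 0.000193), where it called 3.43% of all genes, and limma-voom called 0 of the 7, against 0.2% of all genes, 0.12% higher and 0.0799% lower. With no filter on low counts edgeR called Mt1 higher and Slc30a10 lower, where it called 0.793% of all genes, 0.418% higher and 0.376% lower. Without knockout replicate 1 it called Mt1 alone, where it called 0.11% of all genes higher and 0.0472% lower. Its robust form called 0.543% of all genes and 0 of the 7. Since the genes were listed with these results known, nothing is read from the shares.

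**Figure D3:**
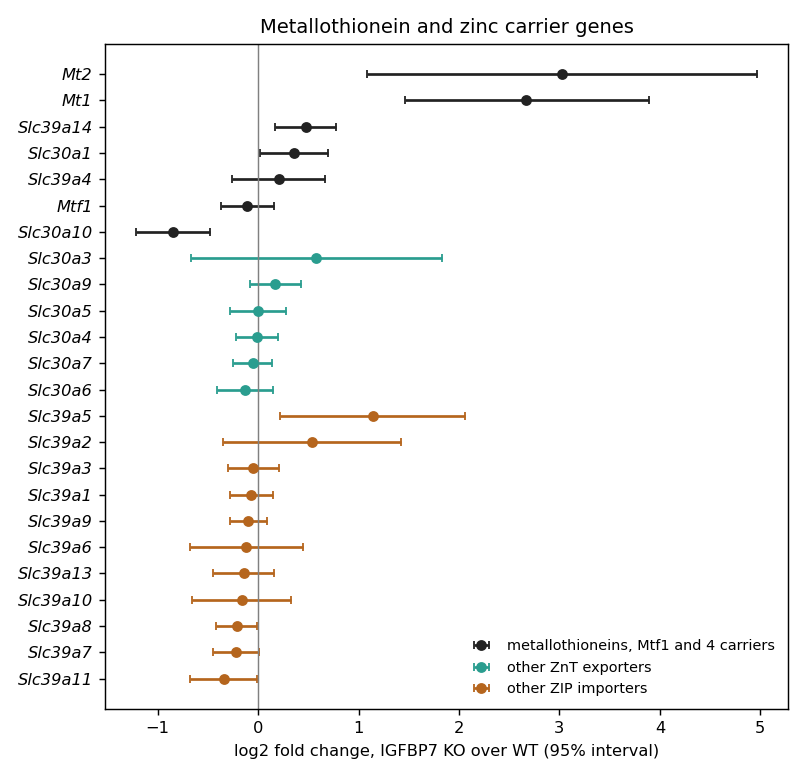
Log2 fold change (IGFBP7_KO over WT, horizontal axis) with its 95% interval for each tested metallothionein, ZnT and ZIP gene and Mtf1, grouped by colour. Mt1 and Mt2 are at 2.67 and 3.03 and Slc30a10 is at -0.85, whereas most other carriers are near 0.

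Among the remaining ZnT and ZIP genes, no difference passed the test. Of the other ZnT exporters 6 of 8 passed the filter on low counts, with a median log2 fold change of -0.01, against 0.001 over all genes tested. DESeq2 and edgeR each called 0 of them, and 0 reached p under 0.05 in edgeR before adjustment, where 15.4% of all genes did. The lowest p was that of Slc30a9, at 92.0 ± 8.1 CPM in knockout and 81.6 ± 9.4 CPM in WT livers (SD, n = 3 each). Of the other ZIP importers 11 of 12 passed the filter, with a median of -0.12 (-0.07 without knockout replicate 2) and 9 of 11 below 0. Over all genes tested, 50.3% were above 0. DESeq2 and edgeR each called 0. Before adjustment, 1 was higher and 2 were lower at p under 0.05 in edgeR, where 8.1% and 7.35% of all genes were. The 1 higher was Slc39a5, a zinc importer of liver and pancreas, at 1.16 ± 0.37 CPM in knockout and 0.522 ± 0.242 CPM in WT livers (SD, n = 3 each; adjusted p = 0.234, edgeR). The 2 lower were Slc39a11, with a log2 fold change of -0.34 ± 0.15 (SE), and Slc39a8, which like Slc39a14 carries zinc and manganese, with -0.21 ± 0.09 (SE).

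Levels of different genes were compared as CPM per kilobase of the main annotated transcript (GENCODE M21). Over the 29 metallothionein, ZnT and ZIP genes and Mtf1, Slc39a14 had the highest mean in both genotypes, at 85.4 ± 4.5 in knockout and 61.4 ± 10.1 in WT livers (SD, n = 3 each). Slc39a7, a ZIP carrier located in the endoplasmic reticulum and Golgi, followed in WT livers at 56.5 ± 4.9, within the spread of Slc39a14. Mt1 was 2nd in knockout livers, at 51.1 ± 39.4 CPM per kilobase, and 12th in WT livers, at 7.99 ± 0.65. Mt2 was 6th in knockout livers, at 18.5 ± 21.0, and 19th in WT livers, at 2.25 ± 0.14. The spread of both metallothioneins among knockout livers is too wide to order them against their neighbours there. Slc30a10 was 13th in knockout livers, at 7.13 ± 1.28, and 9th in WT livers, at 12.9 ± 2.2. Slc30a1 was 10th in knockout livers, at 12.1 ± 1.2, and 11th in WT livers, at 9.48 ± 2.0. The order of the means of these exporters thus differed between the genotypes, but in WT replicate 3 both were at 11.8.

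Reads placed at several positions are not in the counts. Their alignments numbered 2.65 per gene count in knockout replicate 2, against 1.49 to 2.13 in the other libraries. Any part of this in the metallothionein levels was not tested. No stretch of 50 bases of the annotated Mt1 transcripts occurred in a transcript of another gene, and the stretches that Mt2 shared were all with the antisense gene Gm45774 of the same locus, which is not among the counted genes. For comparison, 72.3% of those of the haemoglobin gene Hba-a1 were shared with Hba-a2, and both had 0 counts in all libraries.

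A list of copper and manganese handling genes, most of them copper genes, lay close to the WT level. The manganese carriers Slc30a10, Slc39a14 and Slc39a8, at log2 fold changes of -0.85, 0.48 and -0.21, are not on this list. All 13 were tested, with log2 fold changes from -0.08 to 0.12 and a median of 0.06. Neither edgeR nor DESeq2 called any (0 of 13), and 0 reached p under 0.05 in edgeR before adjustment, where 15.4% of all genes did. Cox17, a copper chaperone for cytochrome oxidase, had the lowest p, at 20.9 ± 1.3 CPM in knockout and 19.2 ± 1.4 CPM in WT livers (SD, n = 3 each).

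Other genes reported as MTF1 targets were not higher in knockout livers. All 5 were below the WT level, where 50.3% of all genes tested were above it. Their median log2 fold change was -0.36, which was -0.22 without WT replicate 1 and -0.17 with the clock score in the model. Both edgeR and DESeq2 called 0, and 2 were lower at p under 0.05 in edgeR before adjustment, where 7.35% of all genes were. Those 2 were Ndrg1, at -0.58 ± 0.18 (SE), and Csrp1, a LIM domain protein gene, at -0.36 ± 0.12 (SE). Gclc, the catalytic subunit of glutamate-cysteine ligase, was at 258 ± 74.7 CPM in knockout and 348 ± 85.1 CPM in WT livers (SD, n = 3 each; adjusted p = 0.402, edgeR). The list also holds Slc39a10, which MTF1 represses, so a lower value does not have the same meaning for every member. Slc39a10, named here after its values were seen, was at 0.863 ± 0.237 CPM per kilobase in knockout and 0.968 ± 0.090 in WT livers (SD, n = 3 each). Of the antioxidant targets of NRF2, among which Gclc is also on the MTF1 list, 12 of 13 tested were below 0. Over all genes tested, 50.3% were above 0. The NRF2 targets had a median of -0.18. That median was -0.07 without WT replicate 1, -0.11 without WT replicate 2, -0.12 without knockout replicate 2, -0.31 without WT replicate 3 and -0.01 with the clock score in the model. The calls were 0 by edgeR and 0 by DESeq2. At p under 0.05 in edgeR before adjustment, 2 genes were lower, where 7.35% of all genes were. Hmox1, heme oxygenase 1, was at 15.6 ± 3.2 CPM in knockout and 21.8 ± 1.9 CPM in WT livers (SD, n = 3 each).

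For glucocorticoid-induced genes the median log2 difference was 0.25 over 11 tested, with 8 above 0, where 50.3% of all genes tested were. The test of edgeR called 0, with 2 higher at p under 0.05 before adjustment, where 8.1% of all genes were. DESeq2 called 2 higher, where it called 1.88% of all genes higher. Fkbp5, the immunophilin that dampens the glucocorticoid receptor, had 179, 186 and 255 CPM in knockout replicates 1 to 3, against 26.5, 46.0 and 77.7 CPM in WT replicates 1 to 3. Its log2 fold change was 2.05 ± 0.34 (SE; adjusted p = 0.0596, edgeR). Like Mt1 and Mt2, Fkbp5 was higher in every knockout liver, but its highest value was in knockout replicate 3. Dusp1 was at 34.1 ± 9.0 CPM in knockout and 18.9 ± 5.2 CPM in WT livers, and Per1, also a clock gene, at 60.6 ± 14.5 and 30.2 ± 18.8 CPM (SD, n = 3 each). Tsc22d3, another glucocorticoid target, overlapped, with 120, 135 and 116 CPM in knockout and 69.6, 124 and 183 CPM in WT replicates 1 to 3. It was chosen after its values were seen. The median of the list was 0 without knockout replicate 1, 0.03 without knockout replicate 3 and at most 0.35 with any other library left out.

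Acute phase genes, which share inflammatory induction with the metallothioneins and Slc39a14, lay at a median log2 difference of -0.19 over 20 tested. Of the 20, 15 were below 0, where 50.3% of all genes tested were above it. The median was -0.42 without knockout replicate 2, -0.37 without WT replicate 2, -0.12 without WT replicate 1 and -0.08 without knockout replicate 3, and it turned to 0.02 with the clock score in the model. Although edgeR called 0, before adjustment 1 was higher and 4 were lower at p under 0.05, where 8.1% and 7.35% of all genes were. DESeq2 called 4 of the 20, with 1 higher and 3 lower, where it called 1.88% of all genes higher and 1.55% lower. The 1 higher was Saa4, a constitutive serum amyloid A gene chosen after its values were seen, at 541 ± 170 CPM in knockout and 351 ± 42.1 CPM in WT livers (SD, n = 3 each). Orm1, an alpha-1 acid glycoprotein, was at 538 ± 144 CPM in knockout and 890 ± 162 CPM in WT livers, and Apcs, serum amyloid P, at 57.7 ± 6.3 and 91.2 ± 26.5 CPM (SD, n = 3 each). Hpx, the heme carrier hemopexin, was at 3340 ± 357 CPM in knockout and 4690 ± 423 CPM in WT livers (SD, n = 3 each).

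Markers of Kupffer cells, the liver macrophages, had lower values in knockout livers. Their 10 tested members were all below the WT level, where 50.3% of all genes tested were above it. Of the 10 members, 9 lay below WT without overlap, where 10.1% of all genes lay wholly below. The summed level of these markers was 353 to 556 CPM in knockout and 673 to 757 CPM in WT livers. The test of edgeR called 0, with all 10 lower at p under 0.05 before adjustment, where 7.35% of all genes were. DESeq2 called 8 lower, where it called 1.55% of all genes lower. Their lowest sum, like the lowest Slc30a10 value, was in knockout replicate 2. Their part in the level of Slc30a10 was not tested. Markers of other cells had medians of -0.02 for endothelial, -0.15 for stellate and -0.44 for cholangiocyte genes, -0.45 for T and NK and -0.64 for B cell genes. The T and NK median rests on 3 tested genes in the fit of all libraries. It was -1.17, -1.04 and -0.9 without knockout replicates 1, 2 and 3, and -0.76 without WT replicate 2. With no filter it was -0.91, and by DESeq2 -0.94. Each of these settings tested more genes than the fit of all libraries, so the genes behind a median can differ. The cholangiocyte median was -0.76 without knockout replicate 1 and -0.24 without WT replicate 3. The stellate median was -0.04 without knockout replicate 1, -0.03 without WT replicate 1 and 0.07 with the clock score in the model. The 6 neutrophil genes were all below the filter, at a summed 0.546 to 0.982 CPM in knockout and 0.748 to 2.34 CPM in WT livers. The 9 exocrine pancreas genes, from a tissue rich in zinc carriers, summed to 21.3 to 35.4 CPM in knockout and 23.3 to 29.6 CPM in WT livers. Nearly all of this was the elastase gene Cela1, with 426 to 637 counts in knockout and 491 to 540 counts in WT libraries. Cela2a had 8 to 22 counts in knockout and 8 to 15 counts in WT libraries, Ctrb1 and Amy2b had at most 2 in any library, and Cpa1, Prss2, Pnlip, Amy2a5 and Try4 had 0 in all.

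The genes with the most similar profile over the 6 libraries were found by Pearson correlation of log2 CPM among 8750 genes with a mean of at least 5 CPM, leaving out predicted genes without a proper name. The genotypes form separate clusters and share libraries and depth across genes, so the correlations only describe likeness. For Mt1 they were Fzd4 (r = 0.991), Miip (r = 0.99) and Zfp629 (r = 0.986), among 55 genes above 0.95. Fzd4, a Wnt receptor, had 23.3, 43.7 and 35.4 CPM in knockout and 19.8, 19.8 and 20.6 CPM in WT replicates 1 to 3, with the knockout livers in the same order as for Mt1. For Mt2 they were Sh2b3 (r = 0.996), Fastk (r = 0.992) and Cabin1 (r = 0.985). For Slc30a10 they were the complement and Kupffer cell gene C1qc (r = 0.994), Mobkl2a (r = 0.994) and Spats2 (r = 0.993). For Slc39a14 they were Nup50, Ppp1r15b and Bnip3, at r = 0.994, 0.992 and 0.99, among 97 genes above 0.95. Bnip3, a mitophagy receptor, had 94.0, 88.5 and 104 CPM in knockout and 41.7, 60.8 and 60.3 CPM in WT replicates 1 to 3. Slc30a1 was most like Pcnt (r = 0.992), Cdc37l1 (r = 0.986) and Dnttip2 (r = 0.985), Mtf1 most like Stk17b (r = 0.994), Med21 (r = 0.984) and Pphln1 (r = 0.97), and Slc39a4 most like Yeats2 (r = 0.983), Man2a2 (r = 0.982) and Casc4 (r = 0.96). Among the members themselves, Mt1 and Mt2 were at r = 0.97, and Slc30a10 ran opposite to Mt1 (r = -0.91), Mt2 (r = -0.84) and Slc39a14 (r = -0.87).

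**Figure D4:**
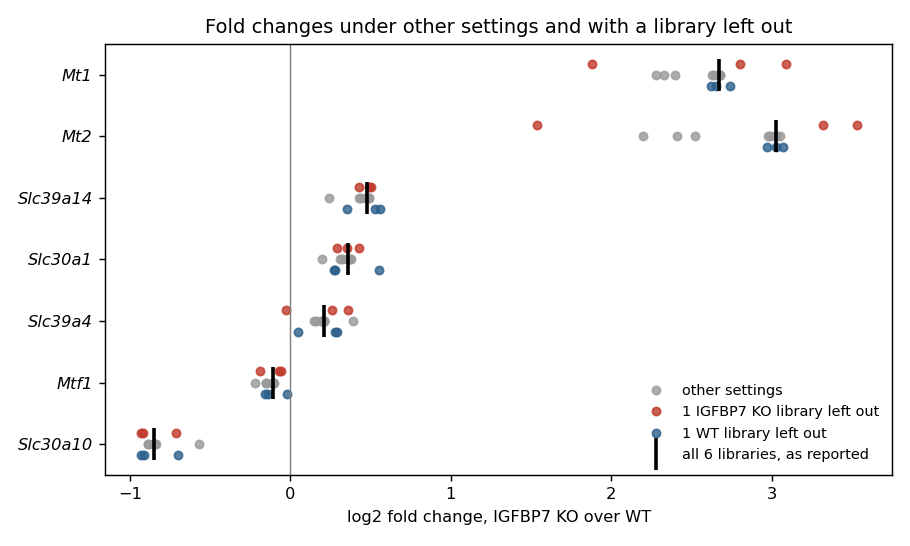
Log2 fold change (IGFBP7_KO over WT, horizontal axis) of each gene with all 6 libraries, with 1 library left out, and under the other scalings, filters, tools and covariates. Mt1 spans 1.88 to 3.09 and Mt2 1.54 to 3.53, with the lowest values without knockout replicate 2. Slc30a10 stays below 0, and Slc39a4 crosses it without knockout replicate 1.

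With the clock score added to the model, the log2 fold changes were 2.28 for Mt1, 2.41 for Mt2, -0.57 for Slc30a10 and 0.24 for Slc39a14, with adjusted p-values of 0.534 to 0.812 by edgeR. The score differs between the genotypes, so this fit cannot assign the difference to either.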

How the data were processed

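Per the labels' protocols, liver RNA was extracted with a Qiagen miRNA kit and made into libraries with an Illumina TruSeq RNA kit. The authors deposited 1 table of raw read counts per gene symbol and library, with no normalization. TopHat2 2.0.8b, HTSeq and CASAVA 1.8.2 and the builds mm9 and hg19 are named, with no role, per the submitters' processing notes. Annotation, strand setting and HTSeq version: not given in the sources used here. The 5 rows naming no gene were left out; reads outside genes made up 9.65% to 12.5% and ambiguous reads 0.594% to 0.662% of uniquely placed reads.

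From these counts, genes were kept by edgeR's filterByExpr (minimum count 10), which left 12522 of 22609. They were scaled by TMM and tested by edgeR 4.0.16 (R 4.3.3) with a quasi-likelihood model of genotype, adjusted by Benjamini-Hochberg over all genes tested. SEs come from the F statistic, and log2 CPM used a prior count of 2. The gene test was tested on simulated counts for this comparison over 12522 genes. It called 22.6% of 62 genes changed 1.5-fold, 72.9% of 70 changed 2-fold and all 67 changed 4-fold, and 9 of 12322 unchanged genes. The changed genes were drawn at random from those tested. The dispersions (spread between replicates) of Mt1 and Mt2 stood at percentiles 99 and 99.8 of the genes tested, so these shares do not apply to them. DESeq2 1.42.0 and limma 3.58.1 were alternatives. The 7 genes and the other lists were chosen with earlier results of these data known. In each list, members past the threshold were named, or else up to 3 tested members with the lowest p, unless a choice made after seeing values is stated; likeness was by the 3 highest correlations. Replicates differed by more than counting noise, so none was merged.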

Additional observations from a re-analysis of the deposited data

How the results depend on the processing

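Over the 16 alternatives, 105 of 112 fold changes of the 7 genes kept their direction and side of the threshold. Over all genes, calls numbered 16 higher and 11 lower in knockout. Total-count scaling gave 10 higher, and robust estimation gave 38 higher and 30 lower. With no filter there were 70 higher, 63 lower and 2 of the 7 genes (Mt1 at 2.67, Slc30a10 at -0.85). DESeq2 gave 236 higher, 194 lower and 3 of the 7 (Mt1 at 2.68, Slc30a10 at -0.84, Slc39a14 at 0.48). The clock score left 0 higher and 1 lower. The cause of these differences was not tested.

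With 1 library left out, calls numbered 1 to 19 higher, 1 to 17 lower and 0 to 1 of the 7 genes, Mt1 without knockout replicate 1 (3.09, adjusted p = 0.022, edgeR; range 0.022 to 0.271). Leaving out any 1 of the 6 libraries moved the higher or the lower count by over 1.5 times; calls were fewest without knockout replicate 2, with 1 higher and 2 lower. Log2 fold changes ranged from 1.88 to 3.09 for Mt1 and from -0.03 to 0.36 for Slc39a4, and the Mt1 to Mt2 log2 difference from -0.23 to 0.45.

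The replicate numbers are shared by the genotypes, but same-numbered libraries deviated together at correlations of -0.08, -0.1 and -0.04. Of the knockout libraries, 0 of 3 correlated best with their own number, so no pairing by number was seen. With 3 libraries a genotype, this check cannot show that there is none. With the replicate block, 0 genes were called higher and 1 lower, and 0 of the 7 genes; the Mt1 log2 fold change was 2.4, and the ratio difference was 0.07. Low Mt2 counts in WT libraries, 20 to 23, limit the precision of its fold change.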

Other observations

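Knockout replicate 2, the liver with the most Mt1 and Mt2, also had the most transcripts of several inflammation-linked genes among the knockout livers. These genes were chosen after their values were seen. Lcn2, the siderophore-binding protein lipocalin 2, had 1.28, 14.8 and 2.65 CPM in knockout replicates 1 to 3, against 13.8, 1.5 and 4.73 CPM in WT replicates 1 to 3. Saa1, an acute phase apolipoprotein, had 20.2, 180 and 32.3 CPM in knockout and 431, 25.4 and 146 CPM in WT replicates 1 to 3. Hamp, the gene for the iron hormone hepcidin, had 456, 919 and 741 CPM in knockout and 656, 615 and 357 CPM in WT replicates 1 to 3. Other acute phase genes did not share this order. Saa3 had 3.74, 2.02 and 2.55 CPM in knockout replicates 1 to 3, and Hpx had 3750, 3190 and 3080 CPM. WT replicate 1 had the most Saa1 of all libraries and 13.8 CPM of Lcn2, and its Mt1 was 4.25 CPM. Any part of these genes in the metallothionein levels was not tested.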
